A study of Mus musculus with 2 samples.

Results

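The 10 genes described here encode 5 chains of the receptors for antibody constant regions (Fcgr1, Fcgr2b, Fcgr3, Fcgr4 and Fcer1g) and 5 receptors of the Cd300 family (Cd300a, Cd300e, Cd300lb, Cd300ld and Cd300lf). They were chosen by name from the 32285 genes of a single-cell RNA-sequencing series, and all 10 were found in both libraries. The series holds 2 libraries of mouse CD45+ cells, white blood cells sorted alive from the retinal pigment epithelium (RPE) and the choroid, the vascular layer behind it. One library came from conditional knockout mice of Il17ra (genotype IL-17RA CKO, knockout below) and 1 from mice carrying the floxed gene (IL-17ra fl, flox below). Both groups received NaIO3, an oxidant that damages the RPE, at 20 mg/kg into the abdominal cavity. No source used here gives the Cre driver, the exons removed, the age of the mice, the number pooled or the time after injection.

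With 1 library per group no difference below has a replicate check, no p-value is given, and every 95% interval covers counting error only. After the same filter on both (at least 1000 UMIs, tags that count single captured transcripts, and less than 10% mitochondrial UMIs) 3982 knockout and 3420 flox barcodes remained, with medians of 7714 and 8741.5 UMIs. The 2 libraries shared 3 kept barcode sequences. Il17ra itself stood at 123 CPM (a gene's UMIs as counts per 1e6 UMIs of the same cells) in knockout and 132 CPM in flox, a ratio of 0.931 (0.893 to 0.970). A tag at the 3' end that may lie outside the removed exons checks nothing. Per the file headers the knockout matrix was written by Cell Ranger 7.0.1 and the flox matrix by version 4, so program version and genotype cannot be told apart. By Xist and Y-linked UMIs, 39.3% of knockout and 65.7% of flox cells were female and 34.6% and 15.7% were male, so both libraries mix the sexes, in different proportions.

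Fc gamma receptors bind the constant part of IgG and let phagocytes take up antibody-coated targets. Most of them activate the cell through Fcer1g, the common gamma chain, whose cytoplasmic tail carries an immunoreceptor tyrosine-based activation motif (ITAM). Fcgr2b opposes them through an inhibitory motif (ITIM), and the balance of the activating receptors against Fcgr2b is known to set the threshold at which immune complexes stimulate a monocyte or macrophage. Cd300 receptors are paired in the same way. They bind lipids such as phosphatidylserine and phosphatidylethanolamine that dying cells expose, and their inhibitory members carry ITIMs while their activating members signal through adaptors with an ITAM. Expression of Fcgr1 and Fcgr4 is known to be induced by interferons.

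The signalling motifs are shown because activating and inhibitory chains are told apart throughout. They were found in the coding sequence of 1 principal transcript per gene (GENCODE vM21, GRCm38), and the codons of the motif tyrosines are in capitals. The ITAM search asked for a pair of tyrosine units spaced by 6 to 8 residues, and Fcer1g alone among the 10 matched it. ITIM matches were found in Fcgr2b, Cd300a and Cd300lf, with 1, 2 and 2 motifs. Neither motif was found in Fcgr1, Fcgr3, Fcgr4, Cd300e, Cd300lb or Cd300ld. These genes are named activating below from what is known of them and not from this search.
Fcer1g ITAM: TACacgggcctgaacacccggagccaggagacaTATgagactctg
Fcgr2b ITIM: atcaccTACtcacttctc
Cd300a first ITIM: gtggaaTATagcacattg
Cd300a second ITIM: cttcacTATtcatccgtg
Cd300lf first ITIM: ctctgtTATgcagacctg
Cd300lf second ITIM: gtttcaTATgccgctctg

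In the genome (GRCm38, the assembly of the submitters' mm10) the genes form a group on each of 2 chromosomes plus Fcgr1, which lies apart at chr3:96282909-96293969 on the minus strand. On chromosome 1 lie Fcgr2b (chr1:170958617-170976547, minus), Fcgr4 (chr1:171018920-171029761, plus), Fcgr3 (chr1:171051174-171064935, minus) and Fcer1g (chr1:171229572-171234365, minus). The Cd300 genes lie on chromosome 11, at chr11:114890041-114904654 for Cd300a (plus), chr11:114922781-114934386 for Cd300lb (minus), chr11:114982274-114989922 for Cd300ld (minus), chr11:115051917-115062177 for Cd300e (minus) and chr11:115116214-115133992 for Cd300lf (minus). Reads of such related genes could be confused, so the last 500 bases of each transcript, where 3' tags fall, were searched for 31-base words found in other genes. In 7 genes there were none, in Fcgr4, Cd300ld and Cd300lf 3.40%, 5.32% and 6.17% of the words were shared, and none of these was shared with another Fc or Cd300 gene. An exon of Fcgr2b overlaps an exon of the antisense gene Gm38204, and Cd300lf overlaps Rab37 on the other strand without sharing an exon. Whether counting used the strand is not given, so the level of Fcgr2b is uncertain to that extent.

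Cells were divided by UMIs of a few genes into 7 gates, which may overlap. The classical monocyte gate (F13a1 and Chil3, at least 3 UMIs together) held 312 knockout and 416 flox cells. The nonclassical monocyte gate (Pparg and Adgre4, at least 2) held 558 and 553 cells, the patrolling monocyte gate (Ace and Treml4, at least 2) 518 and 543, and the macrophage gate (C1qa, C1qb and C1qc, at least 3) 64 and 61. The dendritic gate (Cd209a and Clec10a, at least 2) held 150 and 203 cells, the B gate (Cd79a, at least 2) 1007 and 632, and the natural killer (NK) gate (Ncr1, at least 1, without Cd3d or Cd3e) 276 and 211. The nonclassical and patrolling gates are largely the same cells, 464 in knockout and 471 in flox, and are not independent views. As a type that should lack most of the receptors, 1603 knockout and 1350 flox T cells (Cd3d and Cd3e, at least 2, in no gate) were measured beside them. At the edge of the nonclassical gate, cells with 2 gate UMIs had 48.3 CPM of Fcgr4 in knockout and 102 CPM in flox, and cells just outside, with 1, had 37.4 and 69.0 CPM. At the edge of the classical gate, cells with 3 gate UMIs had 56.6 CPM of Fcgr1 in knockout and 146 CPM in flox, and those with 2 had 95.1 and 128 CPM.

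The labels of the gates were set against markers that the gates did not use. All 6 classical monocyte markers were detected in the classical gate, at 6343 CPM summed in knockout and 7183 CPM in flox, against 3486 and 4310 CPM in the nonclassical gate. All 6 nonclassical markers summed to 3325 CPM in knockout and 3189 CPM in flox in the nonclassical gate, against 1524 and 1403 CPM in the classical gate. The dendritic gate had only 465 and 483 CPM of 6 dendritic markers, among them Flt3 at 139 and 129 CPM, beside 3224 and 3988 CPM of classical monocyte markers, so its cells also carried a monocyte profile. The 6 dendritic markers summed to more in the B gate, 879 and 857 CPM, so their sum does not single out the dendritic gate. Flt3, Zbtb46, Itgax and Kmo were higher in the dendritic gate, and H2-DMb2 and Ccr7 in the B gate. The macrophage gate differed in makeup between the libraries. Its 8 macrophage and microglia markers summed to 12927 CPM in knockout and 4775 CPM in flox, and its classical monocyte markers to 3076 and 4712 CPM. Of 6 neutrophil markers Ly6g was at 0 in every gate of both libraries except the classical gate of flox, and the 6 summed to between 1.41 and 225 CPM. The patrolling gate had the highest sums, 203 CPM in knockout and 225 CPM in flox. Its S100a9 stood at 57.9 and 71.3 CPM, against at most 1.33 CPM in any other gate. That transcript therefore lay almost wholly in cells that passed the patrolling gate alone.

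The 10 receptors differed in where they were highest. Fcgr1, the high-affinity IgG receptor, was highest in the macrophage gate in both libraries, at 219 CPM in knockout and 331 CPM in flox, followed by the classical gate and then the dendritic, nonclassical and patrolling gates. Fcgr2b and Fcgr3, a low-affinity activating IgG receptor, were also highest in the macrophage gate, and for Fcgr3 in flox its interval overlapped that of the classical gate. Fcgr4, which binds IgG2a and IgG2b, was highest in the patrolling gate, at 253 CPM in knockout and 440.4 CPM in flox. The nonclassical gate came next, at 235 and 421 CPM. As these gates are largely the same cells, their intervals cannot show whether they differ. Cd300e, Cd300ld and Cd300a had the same pair of gates on top, at 235 and 250.3 CPM for Cd300e, 274 and 281 CPM for Cd300ld and 654 and 548 CPM for Cd300a in the patrolling gate of knockout and flox. Cd300lf, an inhibitory receptor, was instead highest in the classical gate, at 79.5 CPM in knockout and 93.6 CPM in flox, where its interval overlapped that of the macrophage gate.

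**Figure D1:**
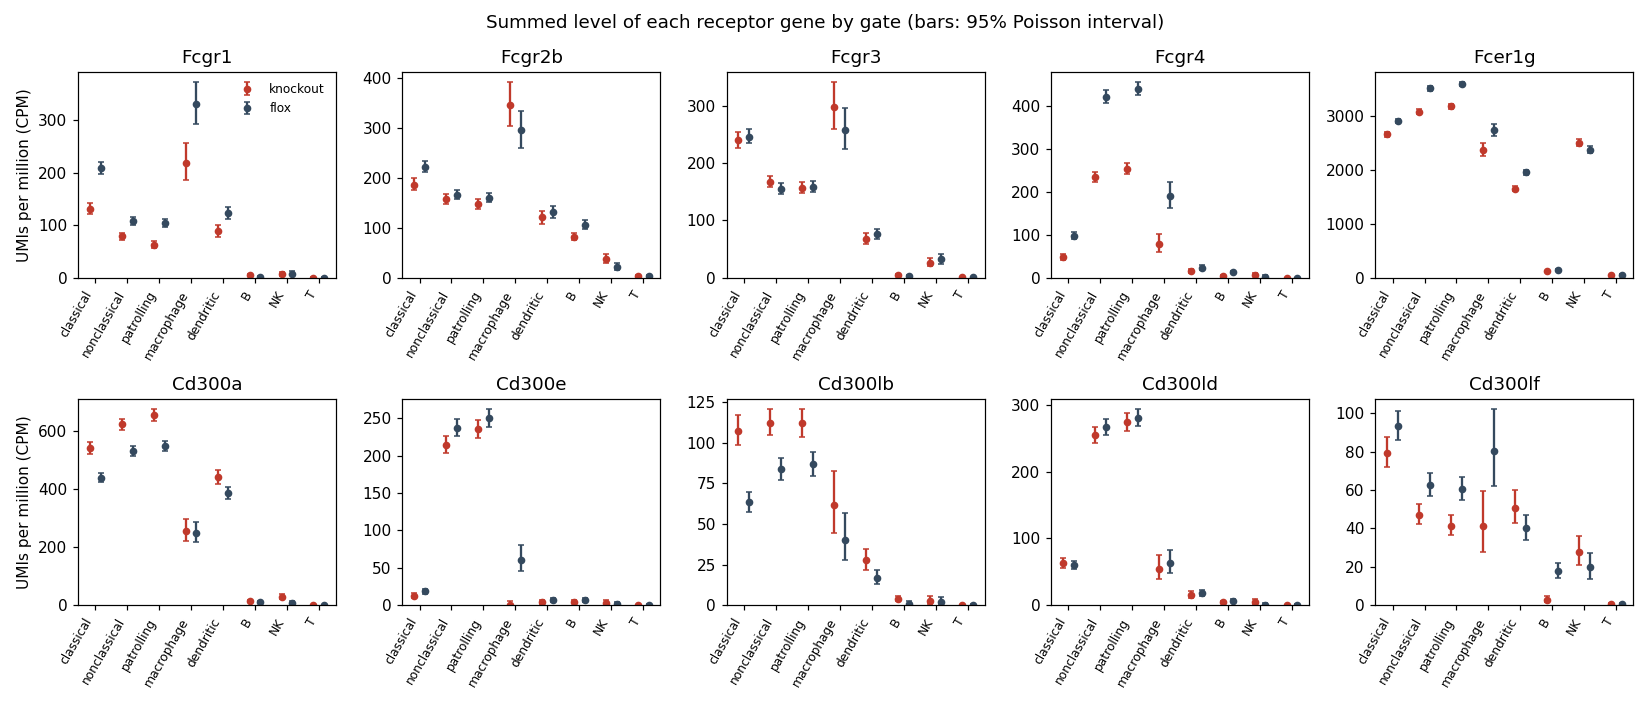
Summed level in CPM (vertical axis, starting at 0) of each of the 10 genes in the 7 gates and in T cells (horizontal axis), knockout in red left of flox in dark blue, with 95% Poisson intervals. Fcgr4 stands lower in knockout in every monocyte gate, at 253 against 440.4 CPM in the patrolling gate, and Cd300lb stands higher, at 107 against 63.2 CPM in the classical gate.

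Lymphocyte gates held little of most receptors. Fcer1g, which also serves the activating receptors of NK cells, was an exception there, at 2499.5 CPM in the NK gate of knockout and 2368 CPM in flox, a ratio of 1.06 (1.01 to 1.10). Fcgr2b, the only IgG receptor that B cells are known to use, stood at 81.7 CPM in knockout B-gate cells and 106 CPM in flox ones, a ratio of 0.771 (0.681 to 0.873). In T cells the other 9 genes were between 0 and 3.99 CPM in knockout and between 0.0811 and 3.49 CPM in flox. Fcer1g stood there at 47.3 CPM in knockout and 60.8 CPM in flox, with a UMI in 4.55% and 6.28% of T cells after thinning every cell to 2000 UMIs, against 99.4% and 99.5% of classical gate cells.

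A difference was called where a gene had at least 50 UMIs in both libraries together, a ratio of knockout over flox of at least 1.5 or at most its inverse, and an interval without 1. The classical gate had 1 of the 10 genes called higher and 3 called lower, where 3.37% and 3.26% of 9241 genes were called in these directions. The nonclassical gate had 0 higher and 1 lower, against 2.73% and 2.98% of 9756 genes, and the patrolling gate 0 higher and 2 lower, against 2.31% and 3.19% of 9551 genes. The macrophage gate had 0 higher and 4 lower, against 8.98% and 9.13% of 4665 genes. Of the 9 genes with enough UMIs in the dendritic gate 1 was called higher and 1 lower, against 4.01% and 3.3% of 8422 genes. Of 7 in the B gate 0 were called higher and 2 lower, against 2% and 4.46% of 9609 genes. Of 5 in the NK gate 2 were called higher and 0 lower, against 2.91% and 2.58% of 7531 genes. With 10 genes, 1 call is already 10% of them, so the gates with a single call in a direction do not stand apart from the background by count. The genes were also chosen with earlier results of these data known, and the gates share cells. Higher counts in the other gates therefore do not show an excess either.

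The median log2 ratio of the genes tested was -0.18 in the classical gate, where the median of all genes tested was 0.04. It was -0.11 in both the nonclassical and the patrolling gate, against 0.03 over all genes in each, and -0.21 in the macrophage gate, against -0.01. The dendritic gate had -0.16 against 0.04, the B gate -0.38 against -0.0073 and the NK gate 0.50 against 0.01. Fcgr4 was called in 6 gates and Fcgr1 in 3, all lower, while Cd300lb (higher), Cd300e (lower) and Cd300lf (lower) were called in 2 gates each.

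**Figure D2:**
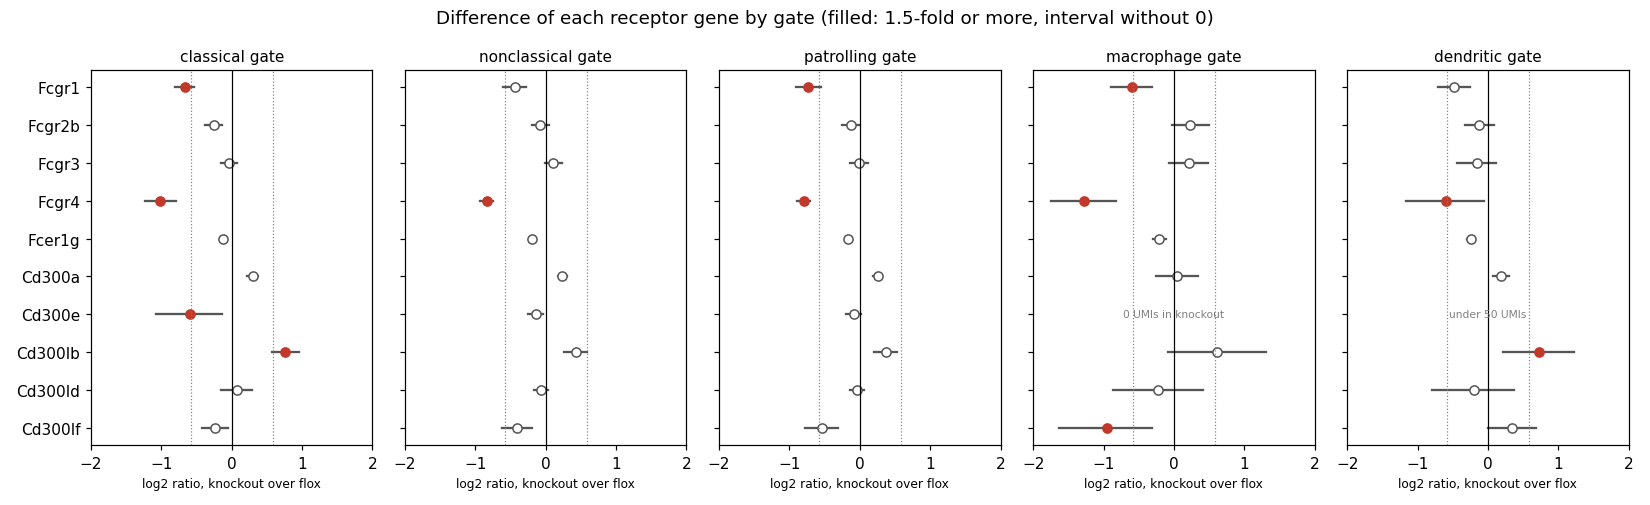
Log2 ratio of knockout over flox (horizontal axis) for each gene (vertical axis) in the 5 myeloid gates, with 95% counting intervals, dotted lines at 1.5-fold and filled points for called differences. Fcgr4 is filled to the left of 0 in all 5 gates, Fcgr1 in the classical, patrolling and macrophage gates, and Cd300lb is filled to the right of 0 in the classical and dendritic gates.

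Fcgr4 was lower in knockout cells of every myeloid gate and was called in all 5. In the nonclassical gate it had 235 CPM in knockout and 421 CPM in flox, a ratio of 0.558 (0.525 to 0.594) from 1560 and 2927 UMIs. The patrolling gate, mostly the same cells, gave 0.576 (0.541 to 0.613). The classical gate had 48.5 CPM in knockout and 98.0 CPM in flox, a ratio of 0.495 (0.424 to 0.575). In the macrophage gate the levels were 78.6 and 190.1 CPM, a ratio of 0.413 (0.298 to 0.566), and in the dendritic gate 15.5 and 23.4 CPM, a ratio of 0.661 (0.446 to 0.965). Barcodes that passed 1 gate alone gave log2 ratios of the other sign in 3 of the 5 gates, 0.60 (nonclassical), 0.59 (macrophage) and 0.19 (dendritic). They gave values still below 0 in the classical and patrolling gates, -1.301 and -1.47. Few cells passed the nonclassical or patrolling gate alone. In knockout 519 of 558 and 497 of 518 cells of these gates also passed another gate, and in flox 536 of 553 and 524 of 543. In the macrophage gate 31 of 64 knockout and 30 of 61 flox cells did so, and in the dendritic gate 57 of 150 and 81 of 203. The patrolling-only cells also carried the neutrophil transcripts given above. The dendritic call was lost in 6 of 15 alternative settings and the macrophage call in 3. A smaller share of knockout cells carried the transcript. With each cell thinned to 2000 UMIs, 35.1% (31.1 to 39.2) of 553 knockout and 43.4% (39.2 to 47.6) of 551 flox cells of the nonclassical gate had an Fcgr4 UMI, against 0.0632% and 0.149% of T cells. Without thinning these shares were 66.1% in knockout and 74.3% in flox in the nonclassical gate.

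Fcgr1 was lower in knockout cells of the 5 myeloid gates as well and was called in 3 of them. The classical gate had 132 CPM in knockout and 209 CPM in flox, a ratio of 0.630 (0.573 to 0.692) from 649 and 1339 UMIs, a call that was lost in female cells alone and in thinned cells. The patrolling gate had 63.1 and 105 CPM, a ratio of 0.603 (0.531 to 0.684), and the macrophage gate 219 and 331 CPM, a ratio of 0.660 (0.538 to 0.807), both called. The macrophage call was lost in 4 of 15 alternative settings, among them removal of doublets and thinning to 2000 UMIs, which gave 0.902 (0.520 to 1.56). The patrolling call was lost in 2, and thinning gave 0.767 (0.534 to 1.10). The nonclassical gate, at 79.2 CPM in knockout and 108 CPM in flox, and the dendritic gate, at 88.7 and 124 CPM, gave 0.735 (0.656 to 0.823) and 0.718 (0.612 to 0.840), short of the fold a call asks for. The share of classical gate cells with an Fcgr1 UMI after thinning was 20.8% (16.5 to 25.8) in knockout and 25.8% (21.6 to 30.3) in flox, intervals that overlap, against 0% of T cells in knockout, which allows up to 0.190%, and 0.0747% in flox.

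The promoters of the 2 genes are shown because both are known targets of interferon signalling and both were lower in knockout here. Each is 300 bases long, from 250 bases before to 50 bases after the annotated start (RefSeq, GRCm38.p6), and all 10 genes matched this table. The window of Fcgr1 is chr3:96293920-96294219 on the minus strand and that of Fcgr4 chr1:171018676-171018975 on the plus strand. Capitals mark matches, on either strand, to 3 motifs, namely TTCNNNGAA (the GAS element of interferon-responsive genes), GAAANNGAAA (the core of the ISRE, bound by interferon regulatory factors) and GGAAGT (a core of ETS factors such as PU.1). Among 32851 promoters of the same length, 8.30% held the GAS letters, 3.44% the ISRE core and 23.8% the ETS core. The Fcgr1 window held 1 GAS match and 1 ETS match, and the Fcgr4 window 1 ISRE core match and 1 ETS match. Of the other 8 genes Cd300e held a GAS match and none held the ISRE core. A match is a description of the letters and does not show that a factor binds.
Fcgr1: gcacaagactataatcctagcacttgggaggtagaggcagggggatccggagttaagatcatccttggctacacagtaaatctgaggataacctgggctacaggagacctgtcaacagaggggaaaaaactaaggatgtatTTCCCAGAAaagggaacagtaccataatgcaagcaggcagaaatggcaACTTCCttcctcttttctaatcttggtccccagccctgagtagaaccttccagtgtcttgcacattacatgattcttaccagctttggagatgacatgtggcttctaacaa
Fcgr4: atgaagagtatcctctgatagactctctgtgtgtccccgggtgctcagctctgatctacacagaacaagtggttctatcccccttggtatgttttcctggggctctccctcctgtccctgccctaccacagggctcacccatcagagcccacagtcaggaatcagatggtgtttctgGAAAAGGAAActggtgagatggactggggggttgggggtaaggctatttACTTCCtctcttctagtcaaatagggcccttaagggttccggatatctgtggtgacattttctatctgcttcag

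The remaining activating chains differed less. Fcgr3 stood at 241 CPM in knockout and 246 CPM in flox in the classical gate, a ratio of 0.976 (0.904 to 1.05), and at 168 and 156 CPM in the nonclassical gate, a ratio of 1.08 (0.990 to 1.17). Fcgr3 therefore did not follow Fcgr4, its neighbour on chromosome 1. Fcer1g, with which both assemble, was 2652 CPM in knockout and 2896 CPM in flox in the classical gate, a ratio of 0.916 (0.895 to 0.936), and 3072 and 3504 CPM in the nonclassical gate, a ratio of 0.877 (0.860 to 0.893). Those intervals exclude 1, and neither difference reached the fold of 1.5.

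Over all cells of each myeloid gate, inhibitory Fcgr2b differed by less than the fold a call asks for. Its level was 187 CPM in knockout and 222 CPM in flox in the classical gate, a ratio of 0.839 (0.772 to 0.913), and 158 and 166 CPM in the nonclassical gate, a ratio of 0.946 (0.869 to 1.03). In the macrophage gate it was 346 CPM in knockout and 295 CPM in flox, a ratio of 1.17 (0.977 to 1.41). No myeloid gate gave a call for it. Within male cells it gave 0.721 (0.623 to 0.833) in the classical and 0.683 (0.576 to 0.811) in the nonclassical gate. Female cells gave 0.897 (0.796 to 1.01) and 0.914 (0.812 to 1.03). Cells of the classical gate and no other gave 0.724 (0.608 to 0.861).

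Over all cells of the myeloid gates Fcgr4 and Fcgr1 were lower in knockout, while Fcgr2b was not called. The UMIs of the activating receptors (Fcgr1, Fcgr3 and Fcgr4 summed) per UMI of Fcgr2b were lower in knockout there. In the nonclassical gate this balance was 3.06 in knockout and 4.11 in flox, a ratio of 0.744 (0.677 to 0.818), and in the patrolling gate 3.22 and 4.39, a ratio of 0.735 (0.665 to 0.813). The macrophage gate had 1.72 in knockout and 2.64 in flox, a ratio of 0.652 (0.525 to 0.809). In the classical gate, where Fcgr4 is a small part of the sum, it was 2.25 in knockout and 2.49 in flox, a ratio of 0.905 (0.820 to 0.9995), and in the dendritic gate 1.42 and 1.69, a ratio of 0.841 (0.703 to 1.01). These are balances of captured transcripts, from an approximate interval on the log scale, and not of surface protein. Within male cells alone the nonclassical gate gave a log2 ratio of 0.19 for the balance instead of -0.43, and barcodes found in that gate alone gave 0.69.

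**Figure D3:**
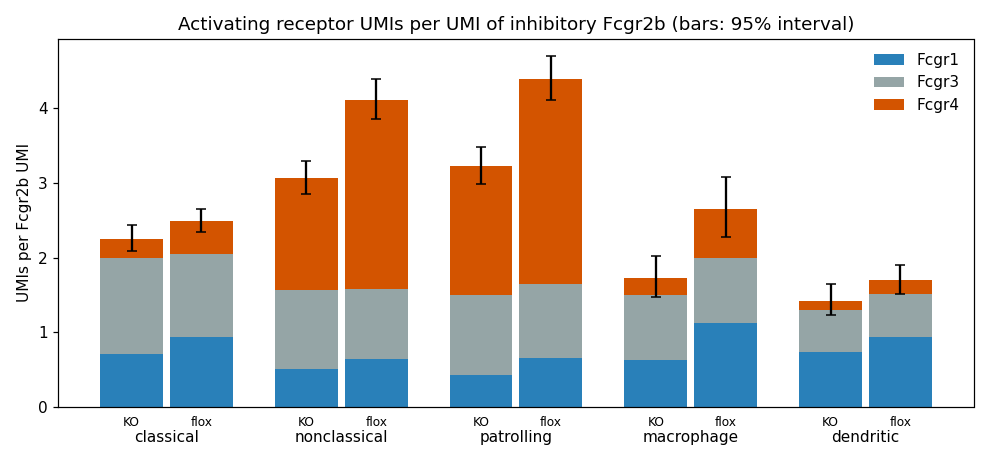
UMIs of Fcgr1, Fcgr3 and Fcgr4 (stacked bars) per UMI of inhibitory Fcgr2b (vertical axis, starting at 0) in the 5 myeloid gates, knockout (KO) left of flox, with 95% intervals of the sum. The sum is 3.06 in knockout and 4.11 in flox in the nonclassical gate, and the part of Fcgr4 is 1.49 in knockout and 2.53 in flox.

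Among the Cd300 genes the direction was the opposite for 2 members. Cd300lb, an activating receptor that pairs with the adaptor Tyrobp (DAP12), had 107 CPM in knockout and 63.2 CPM in flox in the classical gate, a ratio of 1.70 (1.49 to 1.94). The dendritic gate had 27.6 and 16.8 CPM, a ratio of 1.65 (1.16 to 2.34), also called. The dendritic call was kept in 12 of 15 alternative settings. It was lost in male cells alone, in thinned cells and without barcodes of other gates. The nonclassical gate, at 112 and 83.8 CPM, gave 1.34 (1.20 to 1.497). After thinning, 20.2% (15.9 to 25.1) of knockout and 12.05% (9.08 to 15.6) of flox cells of the classical gate had a Cd300lb UMI, against 0% and 0.0747% of T cells. No single cell carried this, since the highest cell held 13 of 529 UMIs in knockout and 11 of 405 in flox.

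Cd300a, an inhibitory receptor for phosphatidylserine and phosphatidylethanolamine, was higher in knockout by less than the fold a call asks for. Its level was 540.1 CPM in knockout and 438 CPM in flox in the classical gate, a ratio of 1.23 (1.17 to 1.30), and 622 and 529 CPM in the nonclassical gate, a ratio of 1.18 (1.13 to 1.23). The dendritic gate had 441 and 386 CPM, a ratio of 1.14 (1.06 to 1.23). In thinned cells of the classical gate 67.0% (61.5 to 72.2) had a Cd300a UMI in knockout and 54.5% (49.5 to 59.3) in flox, against 0.316% and 0.224% of T cells. Its share without thinning was near its ceiling, at 96.8% in knockout and 94.2% in flox.

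Cd300lf, the other inhibitory Cd300 receptor, had ratios under 1 without a call in the monocyte gates. It stood at 79.5 CPM in knockout and 93.6 CPM in flox in the classical gate, a ratio of 0.849 (0.746 to 0.966), at 47.2 and 62.6 CPM in the nonclassical gate, a ratio of 0.754 (0.650 to 0.874), and at 41.5 and 60.4 CPM in the patrolling gate, a ratio of 0.687 (0.584 to 0.806). In the dendritic gate it was 50.8 CPM in knockout and 40.2 CPM in flox, a ratio of 1.27 (0.997 to 1.604). The 2 Cd300 genes with ITIMs thus had ratios on different sides of 1 in each monocyte gate.

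Cd300ld, an activating receptor that uses Fcer1g in mice, had 255 CPM in knockout and 267 CPM in flox in the nonclassical gate, a ratio of 0.956 (0.894 to 1.02). Cd300e, known as an activating receptor of human monocytes, had 215 CPM in knockout and 238 CPM in flox there, a ratio of 0.904 (0.842 to 0.971). Cd300e was called lower in the classical gate, at 12.2 CPM in knockout and 18.4 CPM in flox, a ratio of 0.661 (0.476 to 0.909). All 60 knockout and 118 flox UMIs behind that call lay in 20 and 24 cells that also passed another gate, and cells of the classical gate alone had none in either library.

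Because 72.8% of knockout and 66.6% of flox cells of the classical gate also passed another gate, the monocytes were divided further, a split chosen after the data had been seen. In cells of the classical gate and no other (85 knockout, 139 flox) Fcgr1 stood at 113 CPM in knockout and 252 CPM in flox, a ratio of 0.447 (0.368 to 0.540). In the same cells Cd300lb stood at 116 and 55.0 CPM, a ratio of 2.10 (1.62 to 2.74). In nonclassical or patrolling cells outside the classical gate (407 knockout, 370 flox) Fcgr1 gave 0.656 (0.533 to 0.805) and Cd300lb 1.11 (0.958 to 1.28). Fcgr4 gave 0.406 (0.244 to 0.652) in the classical-only cells and 0.545 (0.509 to 0.583) in the nonclassical or patrolling cells, where it stood at 339.9 CPM in knockout and 624 CPM in flox. Over all cells of both sexes Fcgr4 was thus lower in both strata, while the ratio of Cd300lb was nearer 1 in the nonclassical or patrolling cells, a contrast that was not tested. Male cells of the nonclassical and patrolling gates did not show the lower Fcgr4.

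Interferon-induced genes moved with the library as well. All 9 genes of that list found in the matrix (among them Cxcl10, Rsad2, Ifit1 and Isg15) were called lower in knockout in the classical, patrolling, macrophage and dendritic gates, as were 8 of 9 in the nonclassical gate and 6 of 8 in the B gate, while 4 of 8 were called lower and 1 higher in the NK gate. Cxcl10, a chemokine, stood at 33.1 CPM in knockout and 428 CPM in flox in the classical gate, a ratio of 0.0773 (0.0656 to 0.0905). Cells were therefore thinned to 2000 UMIs and divided by whether they held 3 or more UMIs of the list. Of the classical gate 34 knockout cells (10.9%) and 112 flox cells (27.0%) did so, and in the nonclassical gate 27 (4.88%) and 62 (11.3%).

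Fcgr1 followed this division closely. In the classical gate its level in cells with 3 or more such UMIs was 2.51 times (1.41 to 4.25) that in the other cells in knockout and 3.25 times (2.34 to 4.52) in flox. In the nonclassical gate it was 5.57 times (2.98 to 9.84) in knockout and 4.79 times (2.97 to 7.64) in flox. In classical gate cells under 3 such UMIs Fcgr1 stood at 112 CPM in knockout and 116 CPM in flox, a ratio of 0.965 (0.675 to 1.38). That interval is wide and also holds 0.700 (0.528 to 0.921), the ratio over all thinned cells of the gate. In nonclassical gate cells under 3 the levels were 53.2 and 52.1 CPM, a ratio of 1.02 (0.686 to 1.52), where all thinned cells gave 0.875 (0.628 to 1.22).

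Fcgr4 behaved otherwise in the nonclassical gate. In nonclassical gate cells under 3 interferon-induced UMIs it had 309 UMIs in 526 knockout cells and 489 UMIs in 489 flox cells, a ratio of 0.587 (0.508 to 0.679), close to that over all thinned cells of the gate, 0.610 (0.529 to 0.703). Its level in cells with 3 or more was lower than in the others, 0.504 times (0.216 to 1.01) in knockout and 0.468 times (0.310 to 0.680) in flox. The classical gate did not share this pattern, since Fcgr4 in cells with 3 or more there was 0.981 times (0.190 to 3.22) that in the others in knockout and 1.87 times (1.12 to 3.07) in flox. Its ratio of knockout over flox in classical gate cells under 3 was 0.649 (0.379 to 1.09). In flox cells of the nonclassical gate Fcgr1 and Fcgr4, both lower in knockout, thus stood on different sides of this division. In knockout cells the interval of Fcgr4 holds 1. Of the nonclassical gate 26.3% of knockout and 31.8% of flox cells also passed the classical gate, which had more Fcgr1 and less Fcgr4. The part of this overlap in the division was not tested.

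In flox cells of the nonclassical gate the Cd300 genes apart from Cd300lf were lower where interferon-induced UMIs were many. The level with 3 or more such UMIs was 0.555 times (0.393 to 0.766) that in the others for Cd300a. It was 0.257 times (0.127 to 0.467) for Cd300e and 0.246 times (0.0500 to 0.742) for Cd300lb. Cd300lf was 2.57 times (1.33 to 4.69) as high. In knockout cells of that gate the intervals of Cd300a and Cd300ld lay under 1, at 0.656 (0.413 to 0.993) and 0.167 (0.0342 to 0.491). Those of Cd300e and Cd300lb held 1, at 0.584 (0.265 to 1.12) and 0.460 (0.0937 to 1.38). In the classical gate every Cd300 interval held 1 in both libraries except that of Cd300a in flox, 0.625 (0.475 to 0.813). Within classical gate cells under 3, Cd300lb still had 129 CPM in knockout and 77.6 CPM in flox, a ratio of 1.67 (1.14 to 2.47), and Cd300a a ratio of 1.18 (1.01 to 1.38). The part of interferon-induced expression in the differences between the libraries was not tested.

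**Figure D4:**
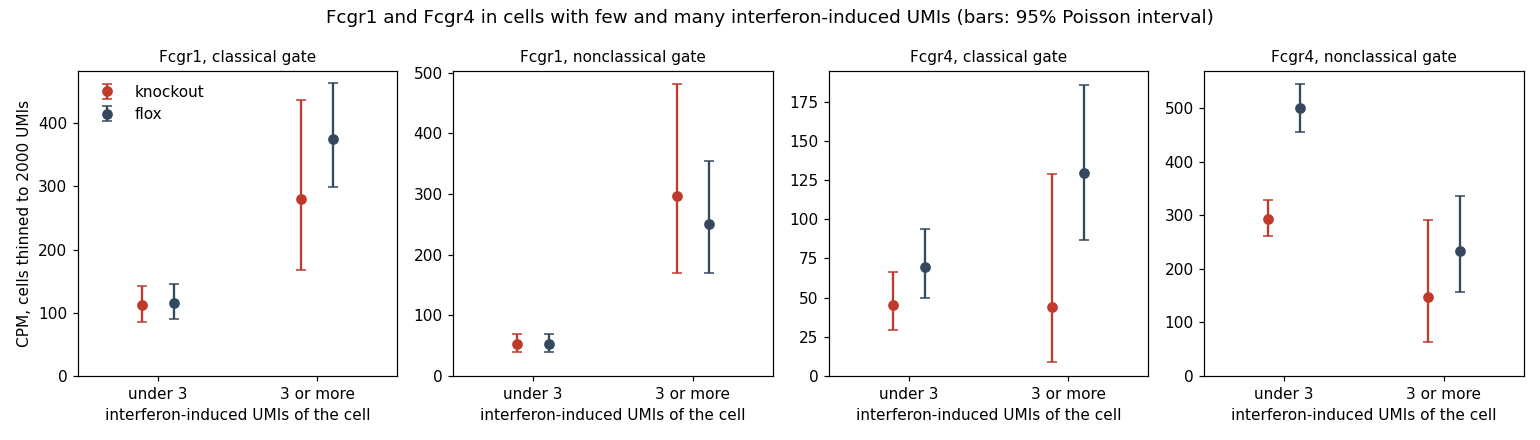
Level of Fcgr1 (2 left panels) and Fcgr4 (2 right panels) in CPM of cells thinned to 2000 UMIs (vertical axis, starting at 0), in cells with under 3 and with 3 or more interferon-induced UMIs (horizontal axis), knockout in red left of flox in dark blue, with 95% Poisson intervals. Under 3, Fcgr1 is 112 in knockout and 116 CPM in flox in the classical gate, and Fcgr4 in the nonclassical gate has a ratio of knockout over flox of 0.587.

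Since the libraries mix female and male cells in different proportions, the differences were taken within each sex. Cells assigned to neither sex were left out. They were 50 knockout and 62 flox cells of the classical gate and 22 and 30 of the macrophage gate. Fcgr1 was lower in knockout in both sexes of the 3 monocyte gates and the macrophage gate. The male cells of the macrophage gate were only 21 in knockout and 6 in flox. In the dendritic gate Fcgr1 gave 1.14 (0.896 to 1.45) among female and 0.379 (0.294 to 0.487) among male cells. Its level in the classical gate was 131 CPM in knockout and 165 CPM in flox among female cells, a ratio of 0.796 (0.689 to 0.918). Among male cells it was 125 CPM in knockout and 319 CPM in flox, a ratio of 0.392 (0.336 to 0.456). Male flox cells also held the most interferon-induced RNA, at 534 CPM summed over the list in knockout and 4611 CPM in flox, against 549.5 and 1238 CPM among female cells. Its part in the Fcgr1 difference between the sexes was not tested.

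Fcgr4 did not keep its difference in both sexes. Female cells of the nonclassical gate had 231 CPM in knockout and 431 CPM in flox, a ratio of 0.537 (0.492 to 0.585). Male cells had 222 CPM in knockout and 191 CPM in flox, a ratio of 1.16 (0.972 to 1.39), from 186 and 55 cells. In the patrolling gate the ratio was 0.554 (0.508 to 0.604) among female and 1.07 (0.891 to 1.29) among male cells. Both sexes of the classical gate were lower in knockout, with ratios of 0.387 (0.299 to 0.496) and 0.587 (0.459 to 0.749). Female cells made up 46.4% of the nonclassical gate in knockout and 71.6% in flox, so the difference over all cells leans on them.

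Cd300lb and Cd300a kept their direction within each sex in the 3 monocyte gates, and other Cd300 genes did not. Cd300lb in the classical gate gave 1.47 (1.24 to 1.75) among female cells, at 111 CPM in knockout and 75.2 CPM in flox, and 2.24 (1.68 to 3.01) among male cells, at 93.7 and 41.9 CPM. Cd300a gave 1.19 (1.10 to 1.28) and 1.59 (1.43 to 1.77). Cd300lf in the classical gate gave 1.15 (0.943 to 1.39) among female cells, at 80.7 CPM in knockout and 70.3 CPM in flox, and 0.492 (0.405 to 0.598) among male cells, at 85.1 and 173 CPM. Cd300e in the same gate gave 0.505 (0.293 to 0.833) among female cells and 5.55 (2.18 to 18.1) among male cells, the second from 38 UMIs in knockout and 5 in flox. In the nonclassical gate Cd300e gave 1.04 (0.947 to 1.14) among female and 1.502 (1.20 to 1.89) among male cells, and Cd300ld 1.08 (0.988 to 1.17) and 1.58 (1.29 to 1.94), although both were under 1 over all cells of that gate. With 1 library per group, the number of animals of each sex behind these cells is not known, and a difference between sexes here may be one between animals.

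**Figure D5:**
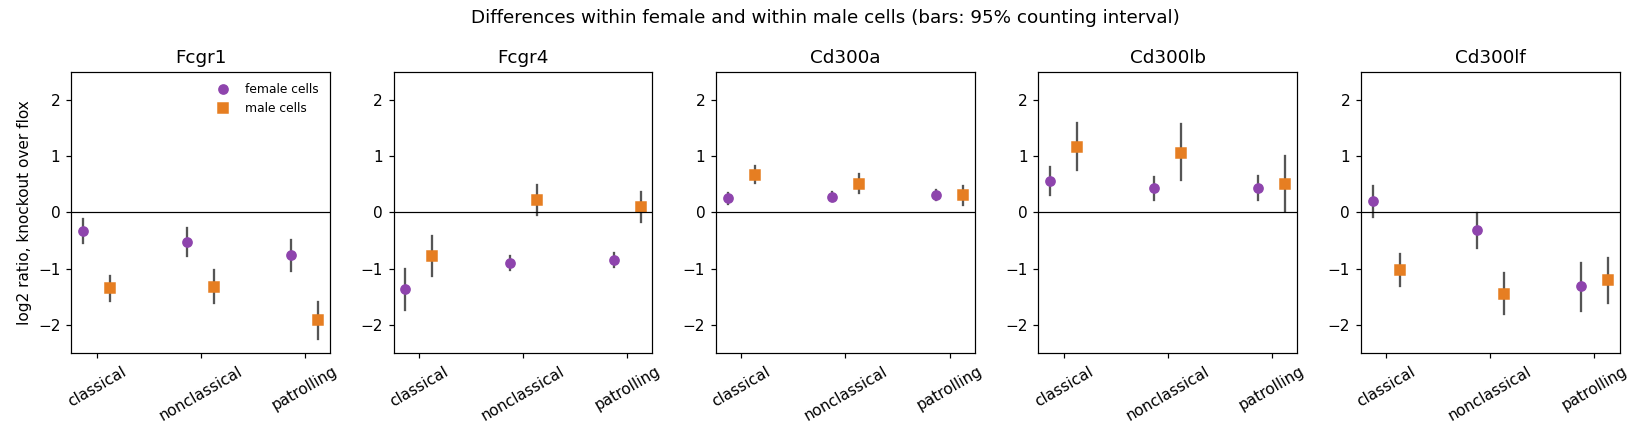
Log2 ratio of knockout over flox (vertical axis) within female cells (purple circles) and within male cells (orange squares) in the 3 monocyte gates (horizontal axis) for 5 of the genes, with 95% counting intervals. Fcgr4 lies below 0 in female cells of each gate and at 0.22 and 0.10 in male cells of the nonclassical and patrolling gates, while Cd300lb lies above 0 in both sexes.

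In the macrophage gate the calls stood on few cells and on a gate whose makeup differed. Besides Fcgr1 and Fcgr4, Cd300lf was called lower there, at 41.4 CPM in knockout and 80.4 CPM in flox, a ratio of 0.515 (0.321 to 0.809) from 29 and 66 UMIs. Cd300e had 0 UMIs in knockout and 60.9 CPM in flox. At 3 counts for the empty library, a floor of 4.29 CPM, the flox level was 14.2 times that floor. The counting interval of the ratio also holds differences down to 11.1-fold. Without the highest cell Cd300e was no longer called there. The 50 flox UMIs lay in 4 cells, all of which also passed another gate, and 29 of them in 1 cell. Fcgr4 and Cd300lf were lower there while Trem2, a lipid receptor of macrophages and microglia, was 409 CPM in knockout and 171 CPM in flox and Fcrls, an Fc receptor-like gene of microglia, 250.1 and 74.3 CPM. The part of this difference in makeup was not tested.

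The calls in lymphocyte gates also rested on few UMIs. In the B gate Fcgr4 was 4.52 CPM in knockout and 13.3 CPM in flox, a ratio of 0.341 (0.213 to 0.534), and 28 of its 31 knockout and 58 of its 60 flox UMIs lay in cells that also passed another gate. Cd300lf was 2.92 CPM in knockout and 17.7 CPM in flox there, a ratio of 0.165 (0.0956 to 0.272), and most of its carriers were in the B gate alone, since 2 of 14 knockout and 2 of 32 flox cells with a UMI passed another gate. In the NK gate Fcgr2b was 37.6 CPM in knockout and 21.3 CPM in flox, a ratio of 1.77 (1.19 to 2.66), with its UMIs in 55 of 276 and 27 of 211 cells. Cd300a was 28.7 and 8.19 CPM there, a ratio of 3.50 (1.97 to 6.63), but 52 of 61 knockout and 12 of 15 flox UMIs lay in cells of another gate too.

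The signalling partners of these receptors were close in both libraries. Of 15 genes of adaptors and activating signalling tested in the classical gate and 15 in the nonclassical gate, 0 were called in either direction. Tyrobp, the adaptor of Cd300lb, stood at 3322 CPM in knockout and 3244 CPM in flox in the classical gate, a ratio of 1.02 (1.003 to 1.05). Syk, the kinase that binds phosphorylated ITAMs, gave 1.05 (0.986 to 1.11) there. Ptpn6 (SHP-1) and Inpp5d (SHIP-1), the phosphatases that ITIMs recruit, gave 1.01 (0.940 to 1.08) and 0.915 (0.841 to 0.997). Of 9 genes of inhibitory signalling Dok2 alone was called in the classical gate, at 23.1 CPM in knockout and 14.5 CPM in flox, a ratio of 1.59 (1.20 to 2.12). It was called higher in the nonclassical and macrophage gates too, at 1.59 (1.14 to 2.23) and 2.25 (1.36 to 3.81). The other calls of the signalling lists in the 7 gates were Fgr, a Src-family kinase, lower in the macrophage gate at 0.578 (0.427 to 0.777), and Dok1, an inhibitory adaptor, higher in the dendritic gate at 1.52 (1.03 to 2.24).

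Other Fc and Cd300 genes were mostly too low to be tested. In the classical gate 3 of 12 other Fc receptor genes had 50 UMIs, of which Trim21, a cytosolic antibody receptor, was called lower, with 23 UMIs in knockout and 77 in flox and a ratio of 0.388 (0.232 to 0.625). Fcrls was called higher, at 10.95 CPM in knockout and 5.31 CPM in flox. Of 7 other Cd300 genes 2 could be tested there and 0 were called. Among 18 other paired receptors Cd200r1 and Treml2 were called lower, at ratios of 0.487 (0.291 to 0.790) and 0.656 (0.514 to 0.833), and 0 were called higher. Siglece, an inhibitory receptor for sialic acid, was called lower in the nonclassical gate, at 0.655 (0.511 to 0.836). Of the other Cd300 genes Cd300c2 in the NK gate was the single call over the 7 gates, higher at 2.26 (1.24 to 4.31) from 42 knockout and 16 flox UMIs. Among other Fc receptor genes Fcrl5 was called lower in the nonclassical gate, at 0.0616 (0.0123 to 0.191) from 3 and 51 UMIs. The patrolling gate, mostly the same cells, gave 0.0881 (0.0231 to 0.240). In the B gate Fcrl5 and Fcgrt were called lower, at 0.472 (0.362 to 0.614) and 0.604 (0.482 to 0.757). Called higher were Fcrl1 and Fcmr in the patrolling gate, at 1.92 and 1.74, and Fcrls and Fcgrt in the macrophage gate, at 3.36 and 1.89.

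Across the 7 gates and T cells of both libraries, 16 points that share gates and libraries, the levels of the 10 genes (log2 of CPM plus 1) ran in similar patterns. Fcgr4 and Cd300ld had the highest correlation of any pair, Pearson's r of 0.982, and Fcgr1 and Cd300e the lowest, 0.533. Of 9282 other genes the pattern most like Fcgr4 was that of Ly6i (0.979), followed by Abi3 (0.978), and the most like Fcer1g that of Tyrobp (0.992), followed by Lrmda (0.985). Fcgr1 was most like Srsf9 (0.986) and Nlrp3 (0.985), Fcgr2b most like Ly86 (0.971) and Snap23 (0.970), and Fcgr3 most like Tcn2 (0.985) and Ccl9 (0.979). Among the Cd300 genes, Cd300a was most like Ifitm6 (0.993) and Tifab (0.990), Cd300e like Fabp4 (0.955) and Dnah12 (0.950), Cd300lb like Plod3 (0.988) and Thbd (0.987), Cd300ld like Gngt2 (0.991) and Pilra (0.987), and Cd300lf like Gng12 (0.973) and Ifi205 (0.960). In single cells of the nonclassical gate thinned to 2000 UMIs, Fcgr4 was seen in 53.1% (45.5 to 60.7) of 175 knockout cells with a Cd300e UMI and 26.7% (22.3 to 31.5) of 378 without, and in 62.1% (55.0 to 68.9) of 198 flox cells with and 32.9% (28.0 to 38.0) of 353 without.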

How the data were processed

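The deposited values are counts of UMIs per gene and barcode, whole numbers in 10x matrix files. Per the submitters' processing notes the authors aligned reads to mm10 and counted with Cell Ranger. Per the file headers its version was 7.0.1 for the knockout and 4 for the flox matrix. No source used here says whether intronic reads were counted. The knockout matrix held 4096 barcodes and the flox matrix 1002803, of which 783281 had a UMI. The label names a v2 kit of the 3' protocol for both, but the flox matrix lists more barcodes than such a kit has, so its chemistry is uncertain, and a difference in chemistry cannot be told apart from genotype.

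Here barcodes of at least 1000 UMIs and under 10% mitochondrial UMIs were kept, 3982 with 35816512 UMIs in knockout and 3420 with 35081392 UMIs in flox. Of these 53.5% and 52.7% passed a gate, and 610 and 649 passed more than 1. Doublets were kept. Scrublet (scanpy 1.11.5) marked 1.38% and 0.556%. UMIs were summed per gate and scaled to CPM. Intervals are exact Poisson for levels, conditional exact binomial for ratios, Clopper-Pearson for shares and approximate on the log scale for the balance of receptors. They cover counting error only, and a share of 0 is bounded by 3 counts. All genes were computed and only those described are printed. Sex was assigned from at least 1 Xist UMI without Y-linked UMIs or the reverse. The gene members and lists were chosen with earlier results of these data known. Named genes outside the 10 are at most 3 per list and gate with the largest change among those called, signalling partners named for their role after their values were seen, and the 2 genes most like each member. Protein sequences were planned and replaced by coding sequence of the annotation. Calling was tested on simulated data of the classical gate, where 100% of 200 changed genes among 9212 tested were called and 0.932% of the unchanged ones. The changed genes had at least 200 UMIs and were raised or lowered 3-fold, and the simulated counts held counting error only. The simulation thus does not show how often changes near 1.5-fold are called. Nor does it cover calls that arise from variation between cells, animals or libraries. Alternatives changed the UMI, mitochondrial and gate minima, doublets, gate overlap, sex, scaling, thinning and the fold, UMI minimum and highest cell behind a call. Python 3.11.15, numpy 2.4.6 and scipy 1.17.1 were used.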

Additional observations from a re-analysis of the deposited data

Results flagged for a closer look

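Fcgr4 in the nonclassical gate had a log2 ratio of knockout over flox of 0.22 in male cells, while female cells lay on the other side of 0, at a ratio of 0.537 (0.492 to 0.585). In the patrolling gate, mostly the same cells, the male value was 0.10, again opposite to that in female cells. The difference between the sexes was not tested, since each library is 1 pool, and the male flox values rest on 55 and 49 cells.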

How the results depend on the processing

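No paired analysis was possible because there is 1 library per group. Values here are log2 ratios of knockout over flox. Fcgr4 in the classical gate stayed called under all 15 alternative settings, Cd300lb there under 14 and Fcgr1 under 13. Some values changed sign. Leaving out barcodes of more than 1 gate gave 0.60 for Fcgr4 in the nonclassical gate, 0.59 in the macrophage gate and 0.19 in the dendritic gate. Few cells then remain in the nonclassical and patrolling gates. The macrophage gate loses 48.4% of its knockout and 49.2% of its flox cells, and the dendritic gate 38.0% and 39.9%. Male cells alone gave 0.22 and 0.10 for Fcgr4 in the nonclassical and patrolling gates and 2.47 for Cd300e in the classical gate. Cd300e also gave 0.12 with gate minima lowered by 1 and 0.030 as the mean of cells' CPM. Thinning to 2000 UMIs gave 0.0026 for Cd300lf in the macrophage gate and 0.0072 for Fcgr4 in the dendritic gate.

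Other values moved in size. Fcgr1 in the classical gate, at -0.67 as reported, was -1.16 without barcodes of other gates (also chosen after seeing the data as the cells of that gate alone), -0.33 in female, -1.35 in male and -0.52 in thinned cells. Cd300lb there, at 0.76, was 1.07 without barcodes of other gates, 0.56 in female and 1.16 in male cells. Fcgr4 in the nonclassical gate, at -0.84, was -0.74 as the mean of cells' CPM and -0.71 in thinned cells. Of gene and gate pairs, 4 were called higher, against 2 in thinned cells and 1 at a fold of 2. Of pairs called lower there were 13, against 6 without barcodes of other gates, 3 in thinned cells and 5 at a fold of 2.

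For the balance of activating receptors over Fcgr2b, leaving out barcodes of more than 1 gate gave 0.69 in the nonclassical, 0.13 in the patrolling, -0.63 in the dendritic and 1.49 in the B gate. Male cells gave 0.19 in the nonclassical, -0.13 in the patrolling, -0.76 in the dendritic, -1.53 in the B and -1.78 in the NK gate. Female cells gave -1.09 in the macrophage and 0.14 in the dendritic gate. Thinning gave -0.74 in the nonclassical, -0.70 in the patrolling, -0.19 in the macrophage and 0.63 in the NK gate. Gate minima raised by 1 gave -0.57 in the nonclassical gate, and lowered by 1 -0.56 in the B gate. The cause of these moves was not tested. Thinning keeps fewer UMIs and weights cells alike, which by itself widens the intervals.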
